A study of Homo sapiens with 4 samples.

Results

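The 10 genes described here, *BCL2*, *BCL2L1*, *MCL1*, *BCL2A1*, *BAX*, *BAK1*, *BCL2L11*, *BID*, *BBC3* and *PMAIP1*, belong to the BCL2 family, which controls the mitochondrial route of apoptosis. They were chosen by name, and all 10 were found by Ensembl identifier among the 32991 genes listed for every library. Their transcripts were counted by droplet single-cell RNA sequencing (10x Genomics Chromium, v2 chemistry) in A375, an established human melanoma line carrying *BRAF* V600E. The S library came from untreated, drug-sensitive cells. RV cells had been kept on vemurafenib, an inhibitor of mutant BRAF. RVC cells had been kept on vemurafenib plus cobimetinib and RVT cells on vemurafenib plus trametinib, 2 inhibitors of MEK1/2, the kinases below BRAF. The 3 resistant cultures were exposed for 10 to 14 days at doses under the IC50, and the drugs were withdrawn 24 h before capture, so that no cell was on drug when it was measured. Each condition is 1 library of 1 culture. The comparisons therefore describe these 4 libraries, carry counting error only and have no test between conditions.

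Members of the family either hold cell death back or set it off. *BCL2*, *BCL2L1* (encoding BCL-XL), *MCL1* and *BCL2A1* (encoding BFL-1) are anti-apoptotic and keep the effectors *BAX* and *BAK1* from opening pores in the outer mitochondrial membrane. The BH3-only genes *BCL2L11* (encoding BIM), *BID*, *BBC3* (encoding PUMA) and *PMAIP1* (encoding NOXA) code for proteins that occupy the groove of the anti-apoptotic proteins or activate the effectors directly. Open pores release cytochrome c, which starts the caspase cascade. In melanocytic cells ERK signalling is known to keep BIM protein low, and MITF to activate *BCL2* and *BCL2A1*. Only transcripts were measured here, and much of the control of these proteins, of BIM and MCL1 above all, acts on the protein.

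The element that the family shares is the BH3 helix, through which pro-apoptotic members engage the groove of anti-apoptotic ones. Its core was searched for in the reading frame of each coding sequence, on the coding strand, as a leucine codon, 3 codons of any kind, a glycine or alanine codon and an aspartate codon. The core was present once in 9 of 10 members, and in 24.8% of the 19477 genes with a coding sequence, since so short a pattern is common. The stretches below show 9 codons each, from GENCODE 29 (GRCh38), with the codons of the leucine and of the glycine or alanine and aspartate in capitals; they are shown to let the 3 classes be compared.
BCL2 (codons 97 to 105): CTCcgccaggccGGCGACgacttctcc
BCL2L1 (codons 90 to 98): CTGagggaggcaGGCGACgagtttgaa
MCL1 (codons 213 to 221): TTAcgacgggttGGGGATggcgtgcag
BAX (codons 63 to 71): CTCaagcgcatcGGGGACgaactggac
BAK1 (codons 78 to 86): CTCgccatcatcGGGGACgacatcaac
BCL2L11 (codons 92 to 100): TTGcggcgtattGGAGACgagtttaac
BID (codons 136 to 144): CTCgcccaggtcGGGGACagcatggac
BBC3 (codons 141 to 149): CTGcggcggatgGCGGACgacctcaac
PMAIP1 (codons 29 to 37): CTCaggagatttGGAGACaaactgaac
*BBC3* was the member with an alanine codon (GCG) in place of glycine, and *BCL2A1* held no match to these letters. The coding sequences differed in length from 54 codons in *PMAIP1*, which is little more than a BH3 helix and its tail, to 350 codons in *MCL1*.

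After filtering, 6334 S, 4177 RV, 7628 RVC and 8446 RVT cells remained, with 25390117 to 58519152 UMIs (unique molecular identifiers, each standing for 1 captured transcript) per library and medians of 8799.5 UMIs per cell in S and 11553 in RV, and 3958 in RVC and 2864 in RVT. Any 2 libraries shared 38 to 149 barcodes. RVC and RVT also differed from S and RV in the gene annotation used for counting and in an association with base composition, described with the ratios below, so that treatment and the processing that came with the annotation cannot be told apart in those comparisons. Of 8 melanoma and neural crest markers, 7 had a UMI in S and RV, 5 in RVC and 6 in RVT, with summed levels of 175, 111, 68.7 and 146 CPM (UMIs of the genes in every 1000000 UMIs of the library). *TYR* was at 0 UMIs in all 4 libraries, and *SOX10* and *S100B* were at 0 in RVC beside 86.5 and 32.8 CPM in S. *SOX10* and *S100B* were also below S in RV, at 39.9 and 6.96, and in RVT, at 19.7 and 0.236, the last on 6 UMIs. *MITF* was at 9.78 in S and 8.13 in RVC. RVC, although labelled A375, thus lacked *SOX10* and *S100B* UMIs, and whether the culture or its label differs could not be settled from the files. The study's methods state that the cell line's identity was checked beforehand. Each ratio of RVC to S therefore compares these libraries as labelled. *PRAME*, another melanoma marker, was present in all libraries at 35.0 to 67.5 CPM. Of 4 fibroblast markers, 3 or 4 had a UMI in every library, and their summed level was 0.513 in S and 0.724 in RV, then 40.6 in RVC and 28.3 in RVT. Blood, endothelial and epithelial markers summed to at most 1.33, with *PTPRC*, *CD3E* and *CDH1* at 0 throughout. The part of these differences in the levels below was not tested.

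Among the anti-apoptotic genes *MCL1* was the most abundant in every library, and *BCL2L1* stood above S in RV and far below it in RVC and RVT. Levels are given in CPM, and since the chemistry tags 1 end of each molecule, they are not divided by gene length. *BCL2L1* (chr20:31664452-31723989, GRCh38, minus strand) was at 23.1 in S (exact Poisson 95% interval 21.9 to 24.4) and 54.8 in RV (52.8 to 56.8), against 3.06 in RVC (2.50 to 3.72) and 3.98 in RVT (3.24 to 4.83). RV was thus the highest library, and both double-resistant libraries were far below S. Against S, *BCL2L1* was 2.37-fold higher in RV (95% interval of the ratio 2.22 to 2.53), 7.54-fold lower in RVC (6.15 to 9.32) and 5.80-fold lower in RVT (4.74 to 7.18). From log2 -2.91 in RVC and -2.54 in RVT these ratios moved to -2.14 and -1.50 when centred on the 200 genes nearest in GC content. The RVC and RVT levels lay within counting error of each other, at log2 0.38 for RVT over RVC. That ratio ran from 0.07 under TMM scaling (trimmed mean of M values) to 0.66 with equal weight for every cell. At 0.66 the interval, moved by the same amount, excludes equality. The same holds at 0.49 without ribosomal and mitochondrial genes in the library size and at 0.48 in cells thinned to 1500 UMIs. It also holds at 0.50 within bins of GC content and at 0.60 when centred on the 200 genes nearest in GC content. Under TMM scaling, with other cell filters and in cells called G1 the moved interval includes equality. The antisense genes *ABALON* and *AL117381.1* overlap *BCL2L1* on the other strand, and whether strand was used in counting is not stated.

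*MCL1* (chr1:150574551-150579738, minus strand), whose short-lived protein holds BAK1 and BIM, was at 92.5 CPM in S (90.0 to 94.96) and 86.3 in RV (83.8 to 88.8), and 68.7 in RVC (65.9 to 71.6) and 95.5 in RVT (91.7 to 99.4). Of the 6 members with at least 10 CPM on average it spanned the narrowest range as a fold. RVC was 1.35-fold below S (1.28 to 1.42). The ratio of RVT to S was at log2 0.05, within counting error of equality. It was -0.47 under TMM scaling (trimmed mean of M values) and between -0.40 and -0.22 when centred on genes of like GC content. In cells thinned to 1500 UMIs it was 0.15, and in those called G1 0.23, so its direction depended on the processing. *BCL2A1* (chr15:79960889-79971446, minus strand), a target of NF-kB and MITF, was low in all libraries, at 1.97 in S, 1.13 in RV and 4.49 in RVC, and in RVT it had 1 UMI among 25390117. The RVC level was 2.28-fold above S (1.78 to 2.94), though not past 2-fold under TMM scaling (log2 0.98) or either GC centring (0.74 and 0.56), whereas RVT was 49.9-fold below S (8.78 to 1988) and 114-fold below RVC (20.1 to 4531), the wide intervals coming from the single UMI. *BCL2* itself (chr18:63123346-63320128, minus strand), the founding member, stood at 0.735 in S and 0.705 in RV, then 0.546 in RVC and 0.630 in RVT, on 16 to 43 UMIs per library. No difference in *BCL2* was detectable at this depth; the interval of the ratio of S to RVT ran from 0.644 to 2.22.

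**Figure D1:**
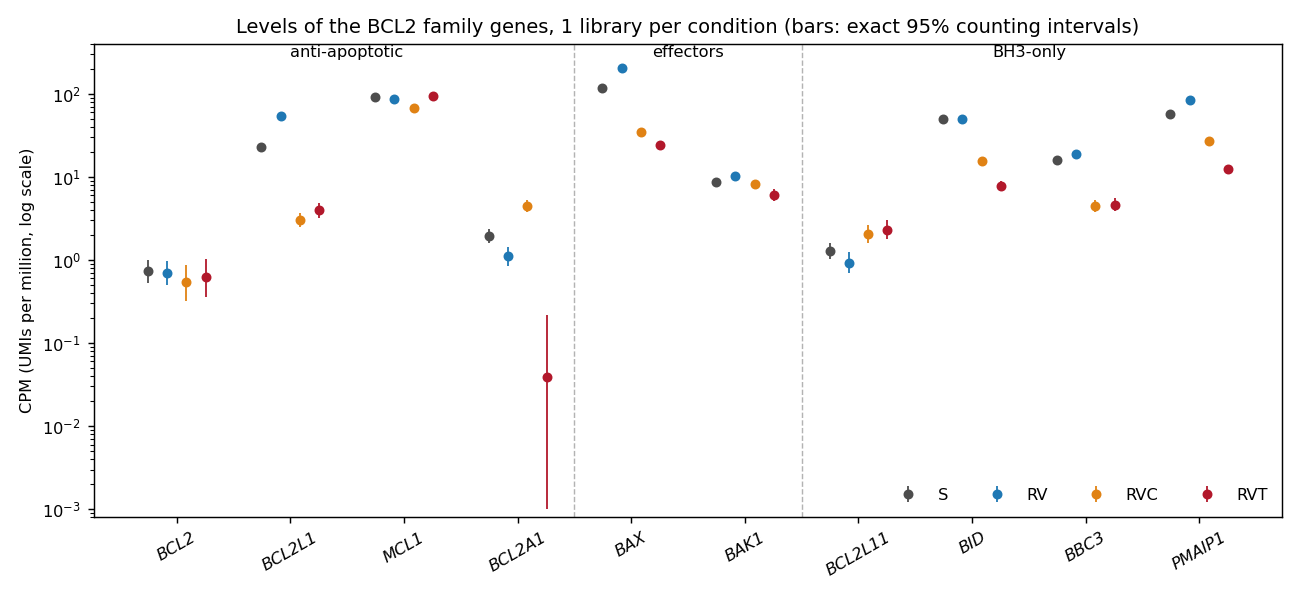
CPM (log scale) of the 10 genes in the 4 libraries, with exact 95% counting intervals as bars and the genes grouped as anti-apoptotic, effectors and BH3-only. *MCL1* lies between 68.7 and 95.5 in every library, *BAX* is at 206 in RV and 24.0 in RVT, and *BCL2A1* rests on 1 UMI in RVT.

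The effector *BAX* was the most abundant member in S and RV and second to *MCL1* in the double-resistant libraries, while *BAK1* was within 1.5-fold of S in each resistant library. *BAX* (chr19:48954815-48961798, plus strand) was at 119 CPM in S (116 to 122) and 206 in RV (202 to 210), against 34.5 in RVC (32.5 to 36.5) and 24.0 in RVT (22.2 to 26.01). RV lay 1.73-fold above S (1.68 to 1.78). RVC lay 3.45-fold below S (3.24 to 3.68) and RVT 4.95-fold below (4.56 to 5.39). When ratios were centred within bins of GC content neither stayed past 2-fold, with RVC turning to log2 0.06 and RVT at -0.22. *BAK1* (chr6:33572547-33580293, minus strand), the second pore-forming gene, was at 8.78 in S and 10.3 in RV, and 8.16 in RVC and 6.07 in RVT. RVT was 1.45-fold below S (1.21 to 1.75), at log2 -0.53, which became -1.05, past 2-fold, under TMM scaling and turned to 0.07 within bins of GC content. For RVC the interval of the ratio to S included 1, at log2 -0.11. The RVC ratio turned to 0.25 within bins of GC content, beyond counting error, and to 0.08 when centred on the 200 genes nearest in GC content.

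Of the BH3-only genes, *BID*, *BBC3* and *PMAIP1* were lower in both double-resistant libraries than in S, while *BCL2L11*, the gene for BIM, stood above S there by less than 2-fold, a difference that was within counting error under TMM scaling and GC centring. *PMAIP1* (chr18:59899948-59904306, plus strand), whose product binds MCL1, was at 57.3 CPM in S (55.3 to 59.2) and 85.7 in RV (83.3 to 88.3), then 26.8 in RVC (25.04 to 28.6) and 12.5 in RVT (11.1 to 13.9). All 4 libraries were thus apart from each other beyond counting error, with RV 1.497-fold above S (1.43 to 1.57), RVC 2.14-fold below (1.99 to 2.31) and RVT 4.601-fold below (4.10 to 5.18). The RVC ratio, log2 -1.10, was no longer past 2-fold with equal weight for every cell (-0.91) or in thinned cells called G1 (-0.38). *BID* (chr22:17734138-17774770, minus strand), which links death receptors to mitochondria once cut by caspase 8, had the same level in S and RV, 49.3 and 49.4, and then 15.8 in RVC and 7.76 in RVT. Its ratio to S was 3.12-fold lower in RVC (2.84 to 3.43) and 6.35-fold lower in RVT (5.498 to 7.38).

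*BBC3* (chr19:47220822-47232766, minus strand), the gene for PUMA, was at 16.2 in S and 19.0 in RV, against 4.52 in RVC and 4.65 in RVT, and the last 2 did not differ beyond counting error. It was 3.59-fold below S in RVC (3.02 to 4.30) and 3.49-fold below in RVT (2.88 to 4.27), the latter no longer past 2-fold, at log2 -0.76, when centred on the 200 genes nearest in GC content. *BCL2L11* (chr2:111119378-111168447, plus strand) was rare, at 1.30 in S and 0.934 in RV, and 2.06 in RVC and 2.32 in RVT, on 49 to 76 UMIs per library. RVC and RVT were 1.59-fold (1.13 to 2.23) and 1.79-fold (1.25 to 2.55) above S, and neither passed 2-fold. From log2 0.67 in RVC and 0.84 in RVT these ratios fell to 0.45 and 0.32 under TMM scaling and to between 0.37 and 0.46 with either GC centring, where the intervals, moved by the same amounts, include equality with S. Without ribosomal and mitochondrial genes in the library size they were 0.52 and 0.81. In thinned cells called G1 they were 1.21 and 1.15, both past 2-fold, but on 7 UMIs in S, 6 in RVC and 25 in RVT. The intervals of these G1 levels overlapped, at 0.454 to 2.33 CPM in S, 0.959 to 5.69 in RVC and 1.63 to 3.71 in RVT. The RNA gene *MIR4435-2HG* overlaps *BCL2L11* on the other strand.

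A ratio was counted when it was past 2-fold, and the background was the same count over the 6506 genes listed for all libraries with at least 10 CPM on average, a minimum that 6 of 10 members reached. In RV against S 1 of 10 members was past 2-fold upward (*BCL2L1*), beside 1.91% of all genes, and 0 downward, beside 1.25%; 3.15% of all genes were past it in either direction. In RVC against S 5 of 10 were past 2-fold downward (*BCL2L1*, *BAX*, *BID*, *BBC3*, *PMAIP1*), beside 23.3% of all genes, and 1 upward (*BCL2A1*), beside 22.5% (6 of 10 members and 45.8% of all genes in either direction). In RVT against S the same 5 members and *BCL2A1* were lower, 6 of 10 beside 24.3% of all genes, and 0 were higher, beside 28.7% (53% in either direction). Between the double-resistant libraries 3 of 10 were lower in RVT than in RVC (*BCL2A1*, *BID*, *PMAIP1*), beside 11.9% (1 of 10, *BCL2A1*, without ribosomal and mitochondrial genes in the library size, where *BID* was at log2 -0.92 and *PMAIP1* also short of 2-fold), and 0 were higher, beside 15.2% (27% in either direction). The median log2 ratio of the members was 0.11 in RV, -0.77 in RVC and -2.00 in RVT against S, where the median over all genes was 0.02, 0.16 and 0.21, and -0.20 beside 0.16 in RVT against RVC. RV, RVC and RVT are all read against the same S library, so these counts share it.

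**Figure D2:**
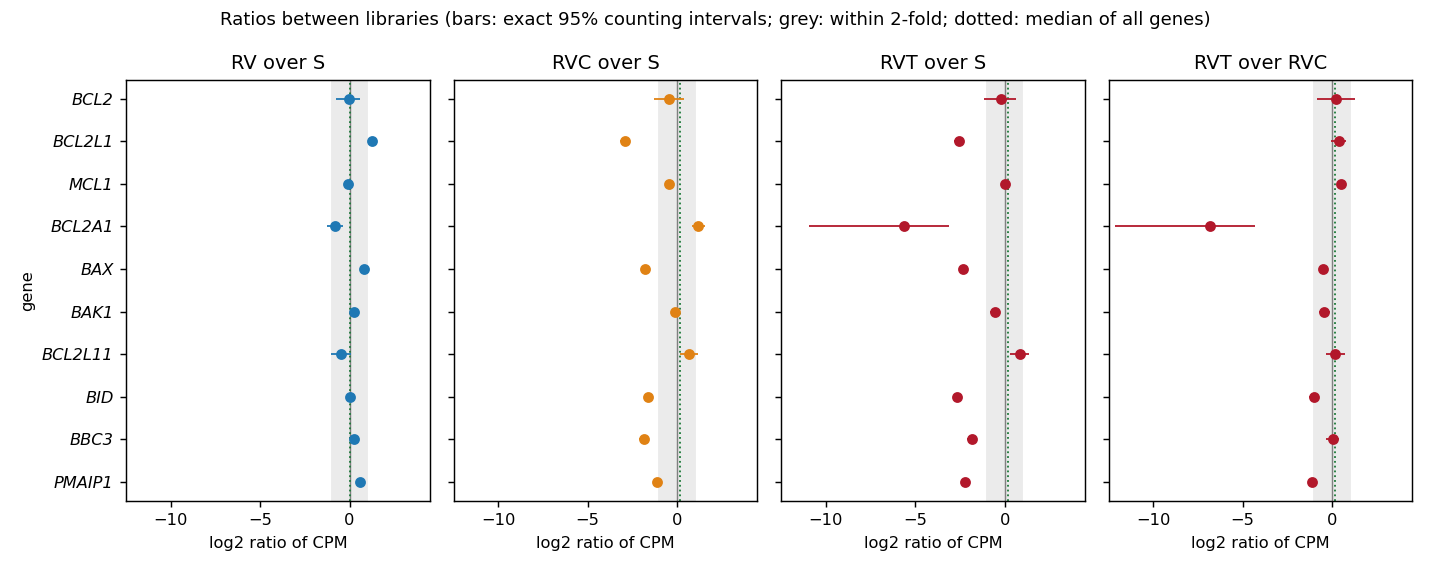
Log2 ratios of CPM of the 10 genes for RV over S, RVC over S, RVT over S and RVT over RVC, with exact 95% counting intervals as bars, the band within 2-fold in grey and the median of all genes dotted. *BCL2L1* lies at 1.25 in RV and at -2.91 and -2.54 in RVC and RVT, and *BCL2A1* at 1.19 in RVC and -5.64 in RVT; *BAX* in RVC lies at -1.79 here and at 0.06 when centred within bins of GC content.

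The ratios of RVC and RVT moved with the base composition of the transcript's 3' end, across genes, with a Spearman correlation of -0.40 over 6506 genes between the GC content of the last 500 bases and the ratio of these libraries to S and RV. The genes share their libraries, so the value is a description. *BAX* (58.2% GC), *BCL2L1* (57.2%), *BBC3* (57%) and *BAK1* (55%) lie above the upper quartile of all genes, 50.4%, whereas *PMAIP1* (26.6%) and *BCL2* (34.2%) lie below the lower quartile, 34.4%. Centred on the 200 genes nearest in GC content, an alternative added after the data had been seen, *BID* was at log2 -2.05 in RVC and -3.08 in RVT against S, and *PMAIP1* at -1.78 and -3.10, both further from 0 than before. *BCL2L1* was then at -2.14 and -1.50, still past 2-fold. *BBC3* was at -1.17 and -0.76, *BAX* at -0.76 and -1.04, and *BCL2A1* at 0.56 in RVC. The lower levels of *BID*, *PMAIP1* and *BCL2L1* in both double-resistant libraries thus remained past 2-fold among genes of like composition, and those of *BAX* and *BBC3* did so in 1 of 2 libraries each. Within bins of GC content the tallies differed, with *BAX* past 2-fold in 0 of 2 libraries (0.06 and -0.22) and *BBC3* in 2 of 2 (-1.49 in RVC and -1.20 in RVT).

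Summed over the 6 pro-apoptotic and the 4 anti-apoptotic genes, the balance of transcripts differed between the libraries. Pro-apoptotic genes gave 68.1% of the members' UMIs in S (exact binomial 95% interval 67.4 to 68.7) and 72.2% in RV (71.7 to 72.7), then 54.5% in RVC (53.1 to 55.8) and 36.4% in RVT (34.9 to 37.9). As a level, the pro-apoptotic sum was 252 CPM in S and 371 in RV, against 91.8 in RVC and 57.3 in RVT. The anti-apoptotic sum moved less, at 118, 143, 76.8 and 100.1. The sum over all members was 370.1 in S and 514 in RV, and 169 in RVC and 157 in RVT, and the double-resistant libraries thus held fewer transcripts of the family as a whole. Effectors alone were at 128, 216, 42.6 and 30.1, and BH3-only genes at 124, 155, 49.2 and 27.2.

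*MCL1* and *BAX* weighed most in the balance. *MCL1* gave 24.98% of the members' UMIs in S and 16.8% in RV, then 40.7% in RVC and 60.7% in RVT, and *BAX* gave 32.2%, 40.03%, 20.4% and 15.3%. With *MCL1* left out the pro-apoptotic share was 90.7% in S and 86.8% in RV, against 91.9% in RVC and 92.5% in RVT, an order in which RVT was highest. With *BAX* left out the share was 52.9%, 53.7%, 42.8% and 24.9%. With *MCL1* and *BAX* both left out it was 83.8%, 74.5%, 87.6% and 87.7%. RVT was below S in every sum tried that held *MCL1*, and above S in both sums without it. The sums were not centred on GC content, which is 44.6% at the 3' end of *MCL1* and 58.2% at that of *BAX*.

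**Figure D3:**
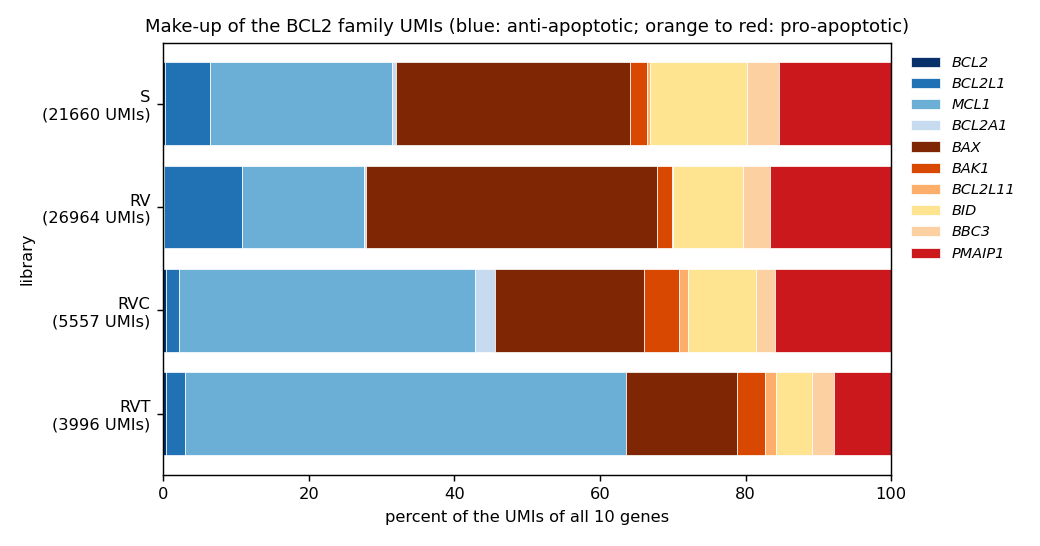
Percent of the UMIs of all 10 genes that each gene gave, per library, anti-apoptotic genes in blue and pro-apoptotic genes in orange to red. *MCL1* widens from 24.98% in S to 60.7% in RVT, and *BAX* narrows from 40.03% in RV to 15.3% in RVT.

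Cells that held more pro- than anti-apoptotic transcripts outnumbered the reverse in S, RV and RVC but not in RVT. To compare cells across depths, each cell was thinned to 1500 UMIs, which left out 397 RVC and 844 RVT cells and no S or RV cell. In thinned cells any member was seen in 41.7% of S, 52.0% of RV, 22.6% of RVC and 21.4% of RVT cells; unthinned, the shares were 91.9%, 97.7%, 47.7% and 36.3%. More pro- than anti-apoptotic UMIs were held by 26.9% of thinned S cells (25.8 to 28.0), 35.0% of RV (33.5 to 36.4), 11.6% of RVC (10.8 to 12.3) and 7.05% of RVT cells (6.49 to 7.65). More anti- than pro-apoptotic UMIs were held by 11.2%, 11.6%, 9.89% and 13.3%. The anti-apoptotic excess spanned a narrower range than the pro-apoptotic one. It still differed beyond counting error between RVC (9.21 to 10.6) and RVT (12.5 to 14.03). UMIs of both classes were held by 4.96% of S, 7.64% of RV, 1.40% of RVC and 1.33% of RVT cells. The balance per cell thus mostly records which class was seen at all. Like the pooled sums, it was not centred on GC content. A375 is 1 line, with no population known to be without these transcripts, so the contribution of free RNA could not be measured.

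**Figure D4:**
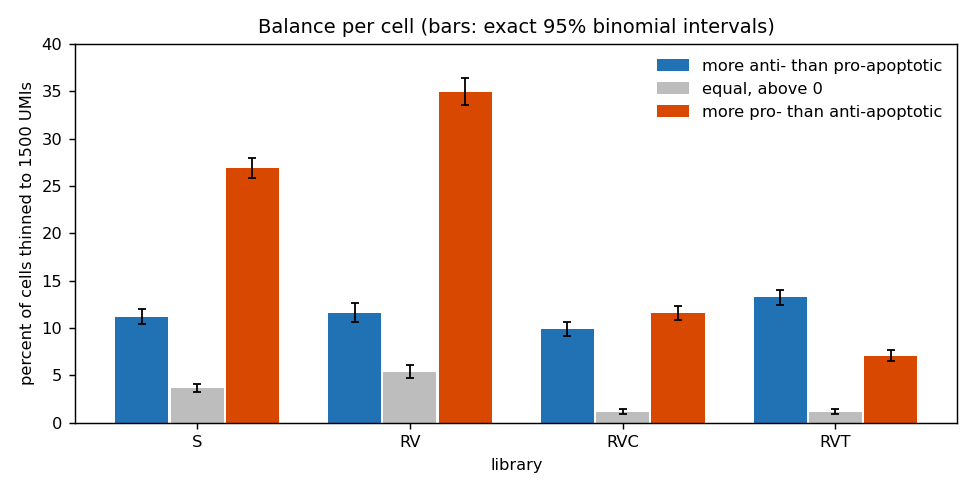
Percent of cells, each thinned to 1500 UMIs, with more anti- than pro-apoptotic UMIs, with equal numbers above 0, and with more pro- than anti-apoptotic UMIs, with exact 95% binomial intervals. The pro-apoptotic bars stand at 26.9% in S and 35.0% in RV, and 11.6% in RVC and 7.05% in RVT, and the anti-apoptotic bars between 9.89% and 13.3%.

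Single members were seen in up to 24.7% of thinned cells. *BAX* was seen in 14.98% of S, 24.7% of RV, 4.88% of RVC and 3.62% of RVT cells, *MCL1* in 12.5%, 11.5%, 10.0% and 13.9%, and *PMAIP1* in 8.46%, 12.9%, 4.01% and 1.79%. *BCL2L1* was seen in 3.35%, 7.81%, 0.443% and 0.618%. *BCL2A1* was seen in 0 of 7602 thinned RVT cells, which allows a share of cells with a UMI of up to 0.0395% at 3 counts and 0.0485% by the exact 95% limit. The ratio of variance to mean across cells, which is 1 for random sampling, was 1.10 for *BAX* in RV, 1.07 for *MCL1* in RV and 1.15 for *PMAIP1* in RV, where 1 cell held 8 *PMAIP1* UMIs. *BCL2A1* in S, with 18 thinned UMIs, was at 1.33. In RVC and RVT the ratio ran from 0.989 to 1.06 over the members seen. At such low means the ratio stays near 1 also where groups of cells differ, as for *BCL2L1* in S, with a ratio of 1.012 and levels of 13.9 and 34.97 CPM in cells with and without neural crest markers.

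In S and RV *PMAIP1* was lower in cells called G1 than in cells called S phase or G2/M. Cells were called G1, S phase or G2/M from scores over the phase gene lists of Seurat, with 1517 to 2410 cells per library within 0.05 of a boundary. G1 calls made up 65.3% of S, 53.2% of RV, 21.2% of RVC and 87.3% of RVT cells. In S, *PMAIP1* was at 44.8 CPM in G1 cells (39.7 to 50.4) and 89.8 in G2/M cells (78.2 to 103), and in RV at 74.1 (65.2 to 84.0) and 119 (105 to 134). Its S-phase levels were as high as those of G2/M, at 85.1 (67.3 to 106) in S and 126.9 (103 to 155) in RV. In G1 and G2/M cells of RVC it was at 34.4 (27.2 to 42.9) and 26.5 (22.9 to 30.5), and in RVT at 12.1 (10.0 to 14.4) and 14.2 (8.44 to 22.5), with overlapping intervals. *MCL1* and *BID* had overlapping intervals between G1 and G2/M cells in every library. Overlap of intervals does not show that levels or shares are equal. *MCL1* in S was at 86.4 in G1 cells (79.3 to 94.1) and 102 in G2/M cells (90.0 to 116). *BAX* in RV was at 215 in G1 cells (200 to 232) and 155 in S-phase cells (128 to 186). Among G1 cells alone the pro-apoptotic share was 67.7% in S and 72.7% in RV, then 57.6% in RVC and 34.6% in RVT. Over the 3 phases it ran from 67.7 to 69.4% in S, from 70.95 to 73.7% in RV, from 51.8 to 59.8% in RVC and from 34.6 to 44.4% in RVT. The highest RVT value, in 125 S-phase cells, has an interval of 25.5 to 64.7%, and the G1 (32.3 to 36.95%) and G2/M intervals (35.4 to 48.9%) of RVT overlap.

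**Figure D5:**
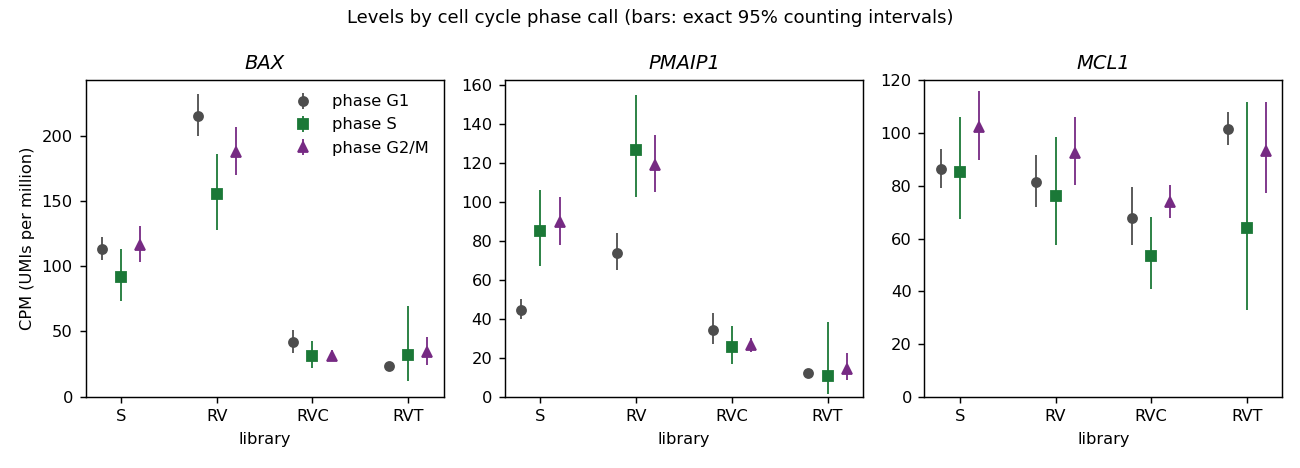
CPM of *BAX*, *PMAIP1* and *MCL1* in cells called G1, S phase and G2/M, per library, with exact 95% counting intervals. *PMAIP1* stands at 44.8 in G1 and 89.8 in G2/M cells of S and at 34.4 and 26.5 in RVC.

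Within S, cells with neural crest markers differed from the rest most in *BCL2L1* and *PMAIP1*. Cells with a UMI of at least 3 of 13 neural crest markers numbered 3632 of 6334 in S and 942 in RV, against 3 in RVC and 138 in RVT. The cells were not thinned for this call, and the median UMIs per cell ran from 2864 (RVT) to 11553 (RV). A deeper cell reaches 3 markers more easily, so the numbers do not compare the libraries at equal depth. *BCL2L1* was at 13.9 CPM in the marked S cells (12.6 to 15.2) and 35.0 in the others (32.7 to 37.4). In RV it was at 42.2 (38.5 to 46.1) and 58.3 (56.0 to 60.7). *PMAIP1* followed the same order, at 44.1 and 74.2 in S and at 65.4 and 91.5 in RV, whereas *MCL1* was higher in the marked cells, at 103 and 78.8 in S and 103 and 81.4 in RV. In both classes *BCL2L1* was higher in RV than in S. The pro-apoptotic share was 65.8% in the marked S cells and 70.6% in the others. Barcodes with over 20% mitochondrial UMIs, which the filter had removed, held 21 pro- and 34 anti-apoptotic UMIs in RVC, a pro-apoptotic share of 38.2% (25.4 to 52.3), and 10 and 24 in RVT, 29.4% (15.1 to 47.5).

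Cells with a *BAX* transcript also held more transcripts of *CDKN1A*, a cell cycle inhibitor. In S, thinned cells with a *BAX* UMI had 160 *CDKN1A* CPM and those without had 73.9, a ratio of 2.17 (1.85 to 2.53), the highest of 1876 genes compared. In RV the levels were 340.4 and 176, a ratio of 1.94 (1.73 to 2.16), again the highest of 1959 genes. Genes next in order were *GADD45A*, *RPS27L*, *IL24* and *EMD* in S, with ratios of 1.60 to 1.36, and *DDB2*, *GADD45A*, *PHLDA3* and *IL24* in RV, with ratios of 1.86 to 1.54. In RVC and RVT, looked at after S and RV, the ratio of *CDKN1A* was 1.76 (1.44 to 2.13) and 1.86 (1.48 to 2.33). *GADD45A* was at 1.003 (0.396 to 2.12) and 0.975 (0.197 to 2.95) there, on 7 and 3 UMIs in the cells with *BAX*. *MDM2* was at 2.13 (1.53 to 2.93) in S and 1.72 (1.26 to 2.33) in RV. In RVC and RVT its intervals, 0.801 to 2.29 and 0.814 to 2.17, included 1. *PMAIP1* went the other way in S, where cells with a *PMAIP1* UMI had 51.0 *CDKN1A* CPM and those without 90.2, a ratio of 0.566 (0.403 to 0.775), and in the other 3 libraries its ratio was 1.006 to 1.06 with intervals that included 1. The genes leading in *PMAIP1* cells of S were *CDC20*, *BIRC5*, *NUPR1*, *ITGB3BP* and *TK1*, at ratios of 1.86 to 1.67, of which *CDC20* acts in mitosis and *TK1* in S phase. In RV they were *CENPF*, *SNAPC1*, *DDIT3*, *GADD45A* and *ASNS*, at 1.78 to 1.64, and *DDIT3* and *ASNS* are targets of the integrated stress response. In *BCL2L1* cells of RV *GADD45A* led at 1.92 (1.55 to 2.37), followed by *GDF15*, *SNAPC1*, *ANKRD1* and *SUCLG1*. For *MCL1* the largest ratio in any library was 1.71, for *CXCL8* in RV, and for *BID* it was 1.81, for *EPN1* in RV. *CDKN1A* in *MCL1* cells was at 1.35 (1.15 to 1.58) in RVC, with intervals that included 1 in S, RV and RVT. Cells are not replicates, and each leading gene was picked as the highest of many.

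The genes nearest to each member in pattern over the 4 libraries were sought by the distance between log2 levels centred over the libraries. *BCL2L1* was nearest to *SLC9A3R2* (28.6, 63.1, 3.73 and 5.16 CPM in S, RV, RVC and RVT; distance 0.122). *BAX* was nearest to *FERMT1* (distance 0.119), *BID* to *NTMT1* (0.0553), *BBC3* to *ARF1* (0.0347), *PMAIP1* to *FTSJ1* (0.163), *BAK1* to *FKBP4* (0.0285), *MCL1* to *CREBL2* (0.0790), *BCL2L11* to *BOD1L1* (0.0863) and *BCL2* to *MESD* (0.0474). The third nearest gene to *PMAIP1* was *AEN*, a nuclease gene, at 17.1, 27.8, 9.37 and 4.49. The search covered only genes with at least 10 CPM on average and a UMI in every library. *BCL2A1* is itself below that level, so genes as rare as it were not searched. Of those searched *PAGE2*, at 121, 135, 284 and 4.49, was closest to it at a distance of 0.905. The RVT level of *BCL2A1* rests on 1 UMI, so its distances are uncertain. These distances are over 4 libraries only.

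Other genes of the pathway were taken from 6 lists of 62 genes in all, of which 41 had at least 10 CPM on average. Of these 41, 4 were past 2-fold in RV against S, beside 3.15% of all genes, and 19 in RVC, beside 45.8%. In RVT 19 were, beside 53%, and 10 in RVT against RVC, beside 27%. Except in RV the counts were near these shares. Of all genes 1.91% were past 2-fold higher and 1.25% lower than S in RV. The shares were 22.5% and 23.3% in RVC, and 28.7% and 24.3% in RVT. The median log2 ratios of all genes were 0.02, 0.16 and 0.21. The list counts and medians that follow are to be read beside these values. Among 6 other BCL2 family genes at that level 1 was higher in RV and 0 were lower, and 3 in RVC and 4 in RVT were lower and 0 higher, with median log2 ratios to S of 0.61, -1.12 and -1.87. *BIK*, a BH3-only gene, followed *BCL2L1* in direction, with 9.79 in S and 39.7 in RV, and 0.637 in RVC and 0.748 in RVT. *BAD*, a BH3-only gene whose product binds BCL-XL, was at 80.1, 116, 10.4 and 14.2. *BCL2L12* was at 33.5, 36.4, 9.16 and 4.84, and *BNIP3*, which also acts in mitophagy, at 101, 182, 78.1 and 42.8. Adding the 13 other family genes to the sums gave pro-apoptotic shares of 76.7% in S and 81.4% in RV. The shares were then 74.6% in RVC and 65.4% in RVT. The order of libraries was that of the members alone, but RVT moved from 36.4% to a majority. *BCL2L2*, *BCL2L10* and *BCL2L12* were counted there as anti-apoptotic. The other added genes, *BCL2L13*, *BNIP3* and *BNIP3L* among them, were counted as pro-apoptotic. In RVT these named genes had 894, 1087 and 1167 UMIs, beside 1454 of the pro-apoptotic and 2542 of the anti-apoptotic members. The pro-apoptotic majority in RVT thus rests on how they are classed.

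In the list of the mitochondrial caspase route 11 genes reached the minimum, among them channel genes of the outer membrane such as *VDAC2* and *VDAC3*. Of these 3 were higher and 3 lower in RVC against S, 2 higher and 4 lower in RVT, and 0 were past 2-fold in RV, with medians of 0.06, 0.36 and -0.29 in the order RV, RVC, RVT. The executioner caspase gene *CASP6* (4.58 in S and 5.47 in RV, against 23.3 in RVC and 18.9 in RVT) was higher in both double-resistant libraries, and so was *XIAP*, an inhibitor of caspases (17.4, 17.3, 43.0 and 68.1). *BIRC5*, a mitotic gene of the same inhibitor family, was at 58.1, 69.4, 83.3 and 10.8, and *BIRC3* at 21.7, 12.9, 13.8 and 1.69. Both were lowest in RVT. *VDAC2*, an outer membrane channel that binds BAK1, was at 224, 233, 48.5 and 55.9, while *VDAC3*, another channel of that membrane, was highest in RVC at 54.97, 67.5, 114.5 and 44.8. Of 7 death receptor genes at the minimum, 4 were higher and 1 lower in RVC against S, 1 higher and 0 lower in RVT, and 0 were past 2-fold in RV, with medians of 0.20, 1.42 and -0.11 in that order. *FAS* was at 6.24, 11.4, 21.0 and 3.98, *TNFRSF10A* at 6.44, 10.1, 19.0 and 6.93 and *CFLAR*, an inhibitor of caspase 8, at 6.66, 7.68, 20.4 and 14.2, each highest in RVC.

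Among 7 regulators of the members at the minimum, 2 were higher and 1 lower in RV against S, 0 higher and 3 lower in RVC, and 1 higher and 2 lower in RVT, with medians of -0.07, -0.27 and 0.10. *CDKN1A* was at 102 in S and 248 in RV, and 137 in RVC and 113 in RVT, with the peak in RV that *BAX* and *PMAIP1* also had. *MITF* was at 9.78, 20.01, 8.13 and 42.0, highest in RVT, where *BCL2A1* had 1 UMI. *NFKB1* was at 73.7, 28.7, 21.5 and 21.0, below S in all 3 resistant libraries. *ATF4*, the stress-response factor that activates *PMAIP1* and *BBC3*, was at 273, 217, 40.7 and 69.0. Whether the levels of these regulators bear on those of the members was not tested.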

How the data were processed

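The authors deposited raw UMI counts of every gene in every barcode, as whole numbers and not normalized, for 4 libraries of A375 cells. Per the labels, bcl2fastq 2.20.0.422 and Cell Ranger were used with GRCh38; the annotation, the filters before deposit and the use of strand are not given in the sources used here. S and RV list 703 genes that RVC and RVT lack, and the latter 547 that the former lack.

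Barcodes with at least 500 genes and at most 20% mitochondrial UMIs were kept, and those with the highest doublet scores (scrublet in scanpy 1.11.5) were removed at 0.8% per 1000 barcodes, since the tool's own threshold marked 0 to 4 barcodes per library. Counts were summed per library and expressed as CPM. A count of 0 allows up to 3 UMIs, which is 0.0513 CPM in S and 0.118 in RVT. Exact Poisson and binomial (Clopper-Pearson) intervals at 95% cover counting error only. Thinning (seed 1) and sums used numpy 2.4.6, scipy 1.17.1 and pandas 2.3.3 under python 3.11.15; figures used matplotlib 3.10.9, phase gene lists came from Seurat 5.3.0, and TMM factors from edgeR 4.0.16 in R 4.3.3. BH3 cores were read from principal transcripts. The ratios were tested on simulated counts of 6504 genes: of 200 changed 4-fold, 100% were recovered in each comparison, and of the unchanged genes 0% passed 2-fold in RV over S and 0.0793% in RVT over S.

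The members and all gene lists were chosen with earlier results of these data known. All 10 members are named. Pathway genes are named from those with at least 10 CPM on average and past 2-fold, the 3 largest in each direction per list. A few genes of these lists are not reported here. The genes nearest in pattern were limited to 3 per member, and those leading in cells with a member to 5 of at least 50 CPM, for members seen in 5% to 95% of thinned cells. Alternatives were other cell filters, scalings, weights, depths, phases, folds, sums and centring on GC content.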

Additional observations from a re-analysis of the deposited data

Results flagged for a closer look

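*BCL2L1* stood on opposite sides of S in the single- and double-resistant libraries, at log2 1.25 in RV, -2.91 in RVC and -2.54 in RVT. *BCL2A1* did so between the double-resistant libraries, at 1.19 in RVC and -5.64 in RVT, the latter on 1 UMI, with RV at -0.81. The RVC value was 0.98 under TMM scaling and 0.74 and 0.56 with the GC centrings. Both were singled out because libraries moved in opposite directions from S; with 1 library per condition the difference was not tested.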

How the results depend on the processing

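No paired analysis was possible because each condition has 1 library. The count of members past 2-fold upward in RV against S, 1, was 2 at a 1.5-fold threshold and 0 at 3-fold; downward, 0, it was 1 at 1.5-fold and 3 in thinned cells called G1 (*BCL2*, *BCL2A1* and *BCL2L11*, the 3 rarest members in S and RV). In RVC against S the 1 member upward (*BCL2A1*) became 0 under TMM scaling, either GC centring, a 3-fold threshold and a minimum of 10 CPM in the higher library, and 2 at 1.5-fold and in G1 cells (with *BCL2L11*). Downward in RVC, 5 became 4 with equal weight for every cell and in G1 cells (without *PMAIP1*), at 3-fold, and under either GC centring (without *BAX*). In RVT against S 6 downward became 7 under TMM scaling (with *BAK1*) and 5 under either GC centring and at a minimum of 10 CPM. Upward, 0 became 1 at 1.5-fold and in G1 cells (*BCL2L11*). In G1 cells *BCL2L11* had only 7 UMIs in S, 6 in RVC and 25 in RVT. In RVT against RVC 3 downward became 1 at 3-fold and without ribosomal and mitochondrial genes in the library size, 2 without doublet removal and at a minimum of 10 CPM, and 4 in G1 cells. *BAX* in RVC against S turned from log2 -1.79 to 0.06 within 10 bins of GC content, of which the highest is wide, and was -0.76 against the 200 genes nearest in GC, and in RVT it moved from -2.31 to -0.22 and -1.04; no other member ratio past 2-fold changed sign under any alternative run, and the cause of these shifts was not tested.

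The pro-apoptotic share in S, RV, RVC and RVT was 67.28, 71.64, 52.14 and 33.84% without *BAK1*, 63.14, 69.25, 49.74 and 33.09% without *BID*, 62.2, 66.64, 45.85 and 30.92% without *PMAIP1*, 52.91, 53.65, 42.75 and 24.93% without *BAX*, 90.71, 86.76, 91.89 and 92.49% without *MCL1*, and 83.75, 74.5, 87.62 and 87.73% without both. Without *BBC3* it was 66.59, 71.14 and 34.45% in S, RV and RVT, without *BCL2L1* 72.58% in S and 80.82% in RV, and without *BCL2A1* 55.94% in RVC. With the wider family it was 76.69, 81.44, 74.61 and 65.35%, in G1 cells 57.58% in RVC and 34.57% in RVT, and in S cells with fewer than 3 neural crest markers 70.59%. Unthinned, any member was seen in 91.9, 97.73, 47.68 and 36.27% of cells. Counts of pathway genes stayed within 1.5 times under every alternative run. For *BCL2*, *BCL2L11* and *BCL2A1* depth sets the limit, with 1 to 148 UMIs per library; without replicates the spread between cultures is not known.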

Other observations

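Genes that act on MCL1 protein and genes that report ERK activity were also listed. Of 3 *MCL1* turnover genes with at least 10 CPM on average, 2 were past 2-fold higher in RVT against S, beside 28.7% of all genes, and 0 in RV and in RVC (*HUWE1* in RVC was at log2 0.99, just below), with median log2 ratios of -0.24, 0.92 and 1.33 in RV, RVC and RVT beside 0.02, 0.16 and 0.21 over all genes. *HUWE1*, a ligase that marks MCL1 for degradation, was at 30.4 CPM in S and 25.8 in RV, beside 60.6 in RVC and 76.5 in RVT, and *USP9X*, which removes the mark, was at 17.8, 14.7, 33.7 and 77.4. The ligase and its opponent were both highest in RVT. There *MCL1* gave the largest part of the family's UMIs, while its own level was 95.5 CPM beside 92.5 in S. A relation between them was not tested, and the levels given are not centred on GC content. Of 7 ERK output genes, 0 were past 2-fold in RV, 2 were lower in RVC, and 1 was higher and 2 were lower in RVT, with medians of -0.11, -0.09 and -0.12. *ETV4* was at 75.6, 75.5, 19.7 and 12.6, *DUSP6*, a phosphatase of ERK, at 56.1, 64.8, 65.9 and 23.3, and *SPRED1*, an inhibitor of the pathway, at 14.3, 12.0, 15.4 and 34.7.

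*BMF*, a BH3-only gene below the minimum of 10 CPM on average and singled out after its values were seen, was at 0.854 in S and 0.724 in RV, beside 4.22 in RVC and 14.4 in RVT. It thus stood higher in both double-resistant libraries than in S, whereas *HRK*, likewise singled out, was at 1.90, 1.20, 0.182 and 0.0394, the last on 1 UMI. *BOK*, an effector relative of *BAX*, was at 5.31, 4.403, 0.698 and 0.748, again below the minimum.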
